A study of Rattus norvegicus with 12 samples.

Results

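The genes described here are those of major histocompatibility complex (MHC) antigen presentation and of the interferon response, as they were measured in rat cerebellar cultures with and without the neonicotinoid insecticide acetamiprid (ACE). Membership was decided by gene name: all RT1 genes (the rat MHC), B2m, Tap1, Tap2, Tapbp and Tapbpl, Psmb8, Psmb9 and Psmb10, Cd74 and Ciita, the interferon regulatory factors (Irf genes) and the STAT factors of interferon signalling, and every name that began with Ifi or Isg or belonged to the Mx, Oas or Gbp families. This gave 103 gene names with 120 probes, of 26214 names and 30367 gene probes on the array. A name is no proof of function, so that Isg20l2, for example, was taken in for its name. The list was chosen with earlier results of these data known, the rise of Tapbpl among them, so that its counts are no independent test.

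Cerebella of Sprague-Dawley rats, 1 day old, were dissociated and grown for 16 days in vitro, at first with serum and later in serum-free medium, as mixed cultures enriched for neurons. Control cultures received the solvent dimethyl sulfoxide (DMSO) and the ACE cultures received 1 µM ACE in the same solvent from day 2 onwards, so that DMSO was common to all cultures. There were 6 culture experiments, each made from the pooled cerebella of a single litter and each giving a control and an ACE array (n = 6 per group). Arrays of the same replicate number were taken as a pair that shared its litter and its lot of cells. Each pair also shared its slide, and cultures rather than single animals were the unit of replication.

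MHC class I molecules are made of a heavy chain and beta-2-microglobulin, and they show peptides from inside the cell to cytotoxic T cells. The immunoproteasome cuts these peptides, the TAP transporter moves them into the endoplasmic reticulum, and tapasin and its relative TAPBPR, the product of Tapbpl, help to select those that bind well. Class II molecules carry peptides from the endosome with the help of the invariant chain Cd74, and in the brain both pathways are best known in microglia, where interferon can raise them through the STAT and IRF transcription factors.

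Signals are given on the log2 scale after quantile normalisation between the arrays, so that a difference of 1 is a doubling. Brightness, as the 75th percentile of the processed signal, lay between 1803 and 4384 intensity units, and 75.4% to 91.0% of the gene spots of an array were well above background. Precision is limited by the number of arrays. Control arrays were always at place 1 and ACE arrays at place 3 of their slide, so that exposure and place on the slide cannot be told apart. Array probes are listed per role as class I (46 probes), class II (13 probes), peptide supply (8 probes), transcriptional regulators (13 probes) and interferon effectors (40 probes).

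Some class I probes are close in sequence to a probe of another gene. Of the 46 class I probes, 16 matched a probe of another member gene over at least 30 aligned bases at 80% identity or more, and over all members this held for 18 probes. The probes of RT1-A1, a classical class I heavy chain, and RT1-CE11 are shown because 53 of their 60 bases were shared, with the bases that differ in capitals. Their mean log2 signals were 14.76 and 8.15. Each sequence is printed 5′ to 3′ as in the array files.
RT1-A1: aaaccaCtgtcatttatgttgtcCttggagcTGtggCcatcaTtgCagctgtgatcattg
RT1-CE11: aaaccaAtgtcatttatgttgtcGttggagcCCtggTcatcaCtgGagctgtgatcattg
A probe of RT1-M6-1 and a probe of RT1-S2 are shown for another reason, since they overlapped by 34 bases, 32 of them identical, marked in capitals.
RT1-M6-1: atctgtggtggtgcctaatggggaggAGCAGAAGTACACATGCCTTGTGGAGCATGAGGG
RT1-S2: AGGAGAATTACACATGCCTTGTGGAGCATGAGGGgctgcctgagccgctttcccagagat
The RT1-M6-1 probe shown here was well above background on every array, with a mean log2 signal of 14.12, while the second RT1-M6-1 probe had a mean log2 signal of 2.63 and did not pass the filter on low signal. Class I values are therefore given per probe, and a signal under an RT1 name may hold RNA of several RT1 genes.

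Promoter sequences of 80 of the 103 gene names were found in RefSeq (build GRCr8), and the 250 bases before the start site were searched on both strands for the core of the interferon-stimulated response element (ISRE core, GAAANNGAAA) and for the gamma-activated site (GAS, TTCNNNGAA). The ISRE core was present in 25 of the 80 member promoters (31.2%), against 3.41% of all 33469 promoters of that length. It was found before 16 of 27 effector genes, 4 of 8 peptide supply genes, 4 of 28 class I genes, 1 of 8 regulator genes and 0 of 9 class II genes. GAS matches were present in 12 of the 80 member promoters (15.0%), against 7.67% of all. A match is a description of these letters and not a measured binding site. The promoters of 5 genes with a probe that was higher in ACE in every pair are printed, 5′ to 3′ on the strand of the gene, with the matches in capitals.
Psmb10 (chr19:50743293-50743542, minus strand): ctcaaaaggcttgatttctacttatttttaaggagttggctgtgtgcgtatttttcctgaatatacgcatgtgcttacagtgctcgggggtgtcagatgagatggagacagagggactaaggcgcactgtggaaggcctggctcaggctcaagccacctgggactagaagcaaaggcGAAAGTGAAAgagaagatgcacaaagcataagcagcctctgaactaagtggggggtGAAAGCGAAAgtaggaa
Gbp2 (chr2:234005477-234005726, plus strand): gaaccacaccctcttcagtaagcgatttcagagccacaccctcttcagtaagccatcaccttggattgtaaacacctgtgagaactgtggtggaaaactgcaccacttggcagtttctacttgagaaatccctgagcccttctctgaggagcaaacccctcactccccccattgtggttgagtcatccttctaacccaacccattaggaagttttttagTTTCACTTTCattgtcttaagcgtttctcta
Irf1 (chr10:38417685-38417934, plus strand): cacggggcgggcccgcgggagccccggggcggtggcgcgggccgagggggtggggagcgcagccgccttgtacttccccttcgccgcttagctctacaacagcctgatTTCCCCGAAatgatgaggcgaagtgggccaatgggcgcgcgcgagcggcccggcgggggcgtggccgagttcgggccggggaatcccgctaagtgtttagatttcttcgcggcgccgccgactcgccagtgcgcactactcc
Ifi47 (chr10:33798494-33798743, plus strand): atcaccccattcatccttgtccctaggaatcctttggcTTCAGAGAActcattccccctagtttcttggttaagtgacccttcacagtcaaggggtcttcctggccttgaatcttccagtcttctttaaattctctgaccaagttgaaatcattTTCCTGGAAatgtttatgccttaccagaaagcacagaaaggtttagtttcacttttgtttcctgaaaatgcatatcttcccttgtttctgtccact
Tapbpl (chr4:159715138-159715387, minus strand): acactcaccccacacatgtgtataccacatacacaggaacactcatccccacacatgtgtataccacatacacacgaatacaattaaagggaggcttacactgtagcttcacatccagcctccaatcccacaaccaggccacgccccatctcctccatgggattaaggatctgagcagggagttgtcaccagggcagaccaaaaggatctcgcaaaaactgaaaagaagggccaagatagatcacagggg
Psmb10 held the ISRE core at 73 and 17 bases before the start and Gbp2 held it at 31 bases, while Irf1 held GAS at 142 bases and Ifi47 at 212 and 96 bases. No match to either motif was found in the Tapbpl window.

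The comparison of ACE with control addressed whether long exposure to the insecticide altered these genes. Of the 120 probes, 107 (93 gene names) passed the filter on low signal, and 96 were well above background on all 12 arrays. No member probe passed the threshold (0 of 107) after adjustment of the limma p-values over all 23796 probes tested, among which 0 passed as well (0%), and the lowest adjusted p of a member was 0.141, for Tapbpl. At an unadjusted limma p under 0.05, 21 member probes (19.6%) were higher in ACE and 1 (0.935%) was lower, whereas over all probes 6.9% were higher and 9.73% were lower. With the litter as a random instead of a fixed block, 1 member probe, Tapbpl, passed the adjusted threshold in limma (adjusted p = 0.0199), as did 5 probes over the whole array.

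Differences were small. The median difference of the 107 member probes was 0.06 on the log2 scale, beside -0.0050 for all probes, and 79 of them (73.8%) lay above 0, against 47.8% of all probes. A 1.5-fold change was reached by 3 probes, of which 2 were higher in ACE, those of RT1-Bb (0.93) and Irf2 (0.77), and 1 was lower (2.80% of members in all, beside 1.72% of all probes). The Irf2 probe was well above background on only 6 of 12 arrays. In all 6 pairs, 11 member probes (10.3%) were higher in ACE and 0 were lower, beside 4.77% and 6.89% of all probes.

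**Figure D1:**
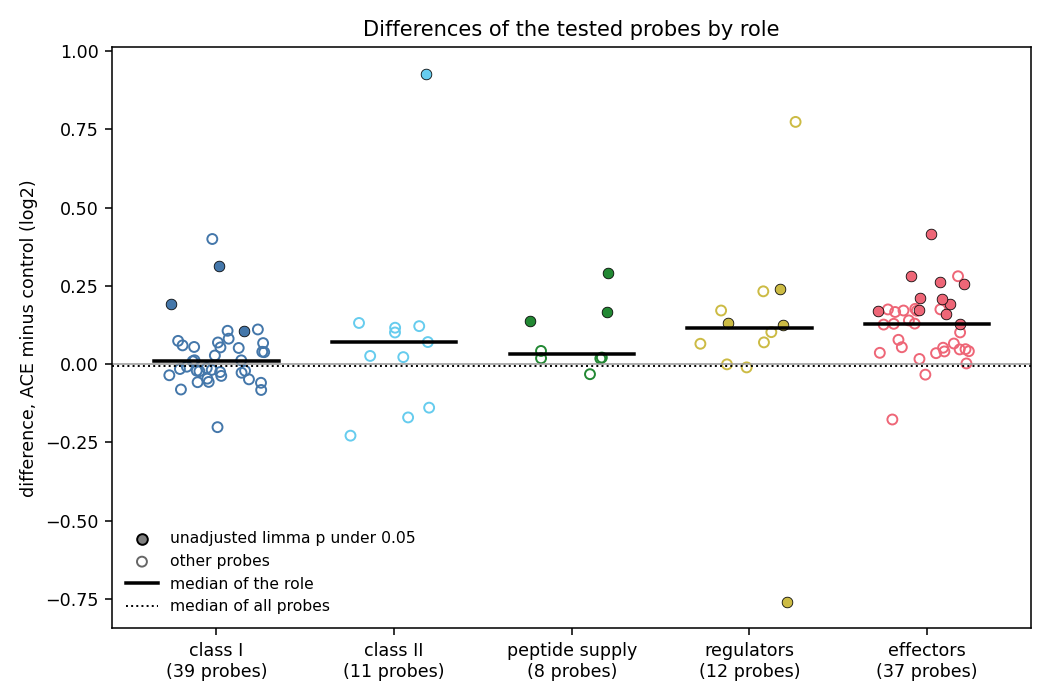
Difference between ACE and control on the log2 scale (vertical axis) for the 107 member probes that were tested, grouped by role on the horizontal axis. Filled points had an unadjusted limma p under 0.05, thick bars are the median of each role, and the dotted line is the median of all 23796 probes. The effector points lie above 0 for 35 of 37 probes, whereas the class I points are spread evenly around 0 (20 above and 19 below).

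Counts are given by role. Among the effectors, the proteins that act against viruses and other pathogens in the cell, 35 of 37 tested probes had a positive difference, the median was 0.13, and 11 were higher at an unadjusted p under 0.05. Regulators had 9 of 12 positive differences with a median of 0.11, with 3 higher and 1 lower at that threshold. Peptide supply had 7 of 8 positive differences with a median of 0.03 and 3 higher at that threshold. Class II had 8 of 11 positive differences (median 0.07, 1 higher at that threshold), and class I had 20 of 39 (median 0.0094, 3 higher). Of all probes, 47.8% had a positive difference, and 6.9% were higher and 9.73% lower at that threshold. The shares higher were 29.7% for effectors, 25% for regulators and 37.5% for peptide supply. For class II (9.09%) and class I (7.69%) they were near the share of all probes. The class I median had no stable sign, as it was -0.01 under the 75th-percentile shift, -0.05 without replicate 1, -0.02 without replicate 3 and -0.11 within the scan batch of pairs 4, 5 and 6. These counts describe probes measured in the same cultures and were not tested as groups.

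Tapbpl had the smallest p-value of the members, and its rise was known when the list was chosen. It encodes TAPBPR, a tapasin-related protein that edits the peptides held by class I molecules. Its probe (chr4:161342551-161342610 in build rn4, minus strand) had log2 signals of 6.26 at the lowest, 6.47 at the median and 6.89 at the highest in control, and of 6.58, 6.76 and 7.13 in ACE. The ranges of the groups overlapped, because pair 2 was high and pair 3 was low in both, but in each pair the ACE culture was the higher, by 0.24 to 0.35. The mean difference was 0.29 ± 0.026 (SE), and its unadjusted limma p was 1.69e-05. It was 0.21 when arrays were only shifted to a common 75th percentile and 0.16 after normexp background correction.

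Psmb10 encodes an inducible catalytic subunit of the immunoproteasome. Its probe (chr19:35777711-35777770 in rn4, minus strand) read 14.25, 14.53 and 14.67 in control (lowest, median and highest) and 14.50, 14.65 and 14.87 in ACE. All 6 ACE cultures were above their control, although the groups overlapped, with a difference of 0.17 ± 0.028 (SE, limma adjusted p = 0.143). The other inducible subunits of the proteasome were close to 0. Psmb8 differed by 0.02 ± 0.050 and Psmb9 by 0.04 ± 0.042 (SE), each higher in ACE in 3 of 6 pairs.

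The transporter and tapasin were close to 0. Tap1 and Tap2, the subunits of the peptide transporter, differed by 0.02 ± 0.067 and 0.02 ± 0.055, and tapasin (Tapbp) by -0.03 ± 0.044 (SE), none with an unadjusted limma p under 0.05. Ifi30, a thiol reductase that opens disulfide bonds of antigens in the endosome, was higher by 0.14 ± 0.037 in 5 of 6 pairs (limma adjusted p = 0.184). It was counted here with peptide supply although it serves class II.

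Among class I probes, B2m and the classical heavy chains showed no difference beyond their error. B2m, the light chain that all class I molecules share, lay between 15.11 and 16.28 in control (median 16.04) and between 15.10 and 16.38 in ACE (median 16.01), and the difference was 0.0094 ± 0.028 (SE). RT1-A2, a classical heavy chain, lay between 13.71 and 14.19 in control (median 13.92) and between 13.61 and 14.25 in ACE (median 13.91). The groups overlapped almost wholly for both genes, with differences of either sign among the pairs.

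The nonclassical class I gene RT1-N3 was higher in ACE in all 6 pairs. Its probe (chr20:2810020-2810079, plus strand) read 8.25, 8.54 and 8.81 in control and 8.33, 8.82 and 8.98 in ACE (lowest, median and highest), a difference of 0.19 ± 0.042 (SE, limma adjusted p = 0.150). Pairs 1 and 4 were low in both groups and showed the smallest differences, 0.07 and 0.09. This probe is among those that share most of their bases with a probe of another gene, here RT1-N1, whose own difference was 0.05 in 4 of 6 pairs.

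RT1-T24-1, another nonclassical gene, gave different readings from its pair of probes. The first (chr20:2921860-2921919, plus strand) read 9.03, 9.45 and 9.73 in control and 9.24, 9.79 and 10.14 in ACE, and was higher in all 6 pairs by 0.31 ± 0.078 (SE, limma adjusted p = 0.175). The second differed by -0.05 ± 0.083 (SE), was higher in ACE in 2 pairs, and shared 33 of 41 overlapping bases with a probe of RT1-A1. Over all members, 14 genes had more than 1 tested probe, and the probes of 6 of these genes had differences of opposite sign.

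The class I probes moved together within a pair but not in the same direction across pairs. In pair 1, 34 of 38 class I probes were higher in ACE (median 0.28) and in pair 3, 33 of 39 (median 0.10), whereas in pair 4 only 5 of 39 were higher (median -0.18) and in pair 5 only 10 of 39 (median -0.12). Pairs 2 and 6 lay near 0, with medians of -0.00077 and -0.02. The median over all probes stayed between -0.01 and 0.0069 in every pair. With arrays only shifted by the 75th percentile, the class I medians were 0.23 in pair 1, 0.09 in pair 3, -0.18 in pair 4 and -0.15 in pair 5, with the same signs.

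Peptide supply had the same signs as class I in pairs 1, 3, 4 and 5, with medians of 0.19, 0.12, -0.05 and -0.06, but was at 0.06 and 0.07 in pairs 2 and 6, where class I was below 0. Effectors did not follow: their median was above 0 in each of the 6 pairs, from 0.0016 in pair 1 to 0.22 in pair 6, although under the 75th-percentile shift it was -0.03 in pair 1 and -0.02 in pair 5. Pairs 4, 5 and 6 were scanned together and the others in a batch of their own each. Within that shared batch 13 of the 107 member probes were lower and 10 were higher at an unadjusted p under 0.05, over 3 pairs, beside 8.18% lower and 5.71% higher of all probes.

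**Figure D2:**
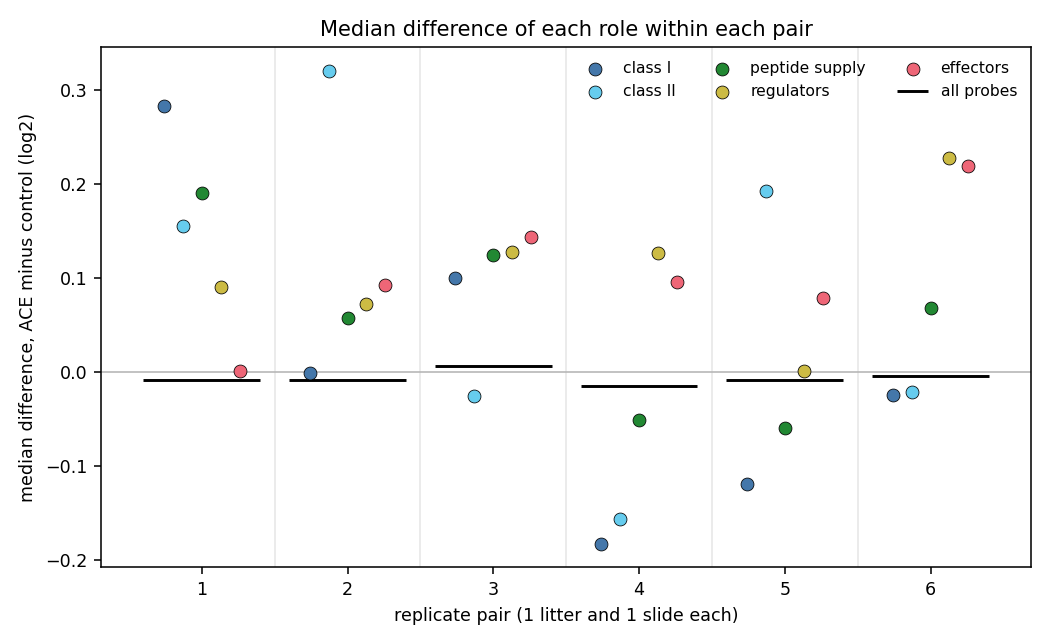
Median difference between ACE and control on the log2 scale (vertical axis) for each role within each of the 6 replicate pairs (horizontal axis). Points are the medians of the tested probes of a role and bars the median of all probes. Class I lies at 0.28 in pair 1 and at -0.18 in pair 4, whereas the effector medians are above 0 in all 6 pairs.

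Class I and class II genes are expressed by several cell types, and in an array of whole cultures a change in the number of cells of a type and a change in RNA per cell cannot be told apart. The neuronal markers were present, with 7 of the 8 measured genes well above background on all arrays and Syt1 the exception, and so were the 6 astrocyte and 5 oligodendrocyte markers. All 14 microglial markers were well above background on all 12 arrays. In pair 1, where class I was higher in ACE, their mean signal was 12.32 for control and 12.71 for ACE (log2). It was 12.48 and 12.39 in pair 4, and 12.55 and 12.49 in pair 5. The neuronal list mean moved the same way in these pairs, by 0.32, -0.07 and -0.13 in pairs 1, 4 and 5 (ACE minus control), and the meningeal fibroblast mean by 0.25 in pair 1 but by 0.57 in pair 4. In pair 3, where class I was also higher in ACE, the neuronal mean differed by -0.10 and the microglial mean was slightly lower, at 12.62 for control and 12.58 for ACE. In pairs 2 and 6 the microglial mean differed by -0.01 and 0.0029, and the neuronal mean by 0.24 and -0.11. The perivascular macrophage list (5 genes, 2 well above background on all arrays) differed by 0.11, 0.85 and -0.42 in pairs 1, 3 and 5. In pairs 2, 4 and 6 it differed by -0.06, 0.02 and 0.24. The part of these cells in the class I values was not tested. Over all 6 pairs 11 of the 14 markers had a positive difference, with a median of 0.07, beside the median of 0.06 for the member probes. The mean signal of the list was higher in ACE in only 2 of 6 pairs, however, and its mean difference of 0.03 became -0.04 without pair 1, where it was 0.38. The astrocyte mean was lower in ACE in all 6 pairs, by -0.05 to -0.07 as ACE minus control, and 0 of its 6 markers had a positive difference (median -0.07). The part of these cells in the members' values was not tested. Of the 14 microglial markers, 2 (14.3%) had an unadjusted limma p under 0.05, beside 16.6% of all probes, and 0 passed the adjusted threshold. Aif1, a calcium-binding protein of microglia, was higher in ACE by 0.19 ± 0.056, and Cx3cr1, the fractalkine receptor, was lower by 0.35 (difference -0.35 ± 0.075, SE), each in all 6 pairs.

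Of the 11 class II probes, 6 (54.5%) varied more between the means of the litters than between the differences of the pairs, beside 84.0% of all probes. Cd74, the invariant chain, lay between 7.12 and 10.56 in control (median 8.70) and between 7.45 and 10.61 in ACE (median 8.79). Pair 1 was the lowest and pair 6 the highest in both groups, and the difference was 0.13 ± 0.099 (SE, limma adjusted p = 0.529). RT1-Da, a class II alpha chain, likewise was highest in pair 6, with 8.21 in control and 7.99 in ACE, while the other 5 pairs lay between 5.80 and 6.68.

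RT1-Db1, a class II beta chain, also was highest in pair 6. Its probe with the wider range lay between 5.31 and 8.20 in control and between 5.84 and 8.05 in ACE. Of the 11 class II probes, 8 had their highest pair mean in pair 6, as did 15 of the 107 member probes in all. The share over all tested probes was not counted. The microglial marker mean was also highest in pair 6, at 12.81 in either group, against 12.32 to 12.71 elsewhere. So was the oligodendrocyte mean, at 15.31 in control and 15.40 in ACE (14.58 to 15.25 elsewhere), while the astrocyte mean was lowest there, at 14.87 and 14.81. The lymphocyte and dendritic cell list was near background, with Cd3e, a T cell marker, well above background on 0 of 12 arrays and 2 of its 7 genes so on all arrays (Cd3d and Flt3). The part of these cells in the class II levels was not tested.

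The peptide exchange factor genes RT1-DMa and RT1-DMb spread less over the litters. RT1-DMa lay between 11.98 and 12.26 in control and between 11.90 and 12.48 in ACE, and differed by 0.10 ± 0.069 (SE, 5 of 6 pairs higher). RT1-DMb differed by 0.07 ± 0.079. Ciita, the master regulator of class II transcription, was near background (well above it on 6 of 12 arrays), and its difference of -0.23 ± 0.459 has no precision. RT1-Ba, another class II alpha chain, differed by 0.03 ± 0.086.

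RT1-Bb, a class II beta chain, had the largest difference of the 107 tested probes, 0.93 ± 0.364 (SE, limma adjusted p = 0.280), at the first of its probes. That probe lay between 4.56 and 6.67 in control (median 5.88) and between 5.63 and 8.19 in ACE (median 6.68). The difference was 0.57 without pair 5, where control read 5.48 and ACE 8.19, and only 4 of 6 pairs were higher. The second RT1-Bb probe differed by -0.17 ± 0.073 and was lower in 5 of 6 pairs.

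**Figure D3:**
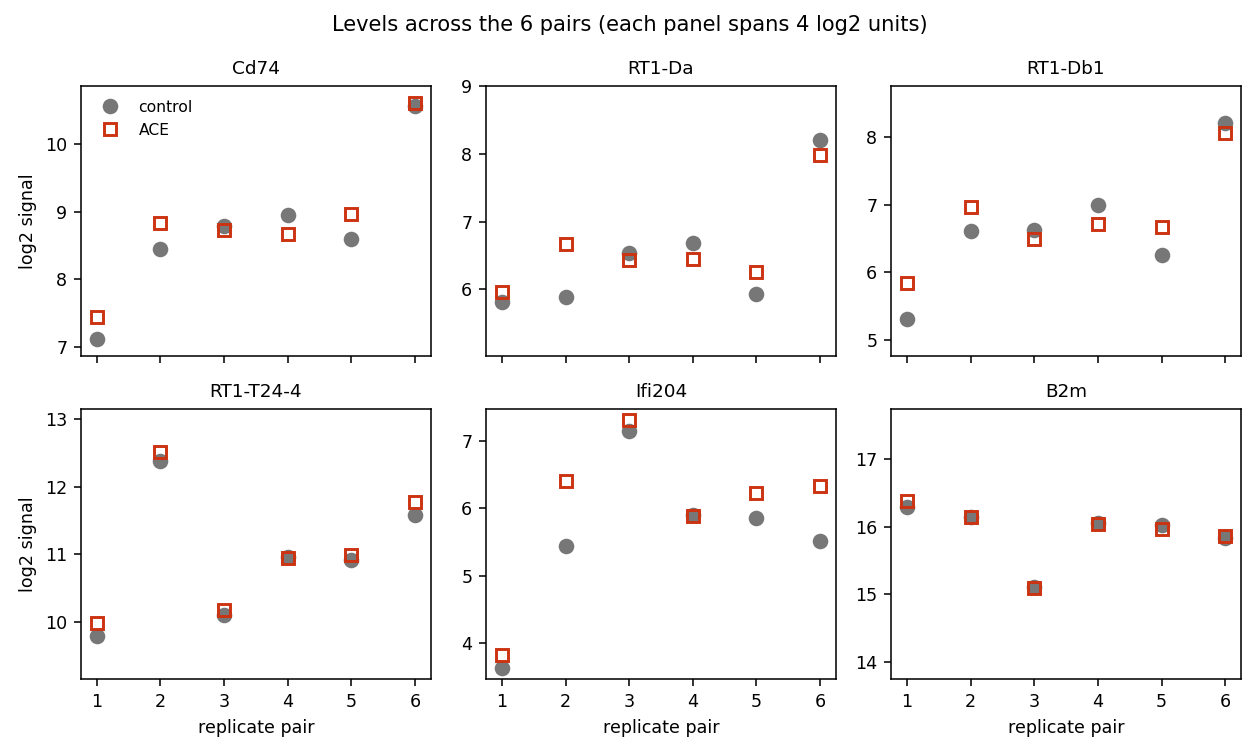
Log2 signal (vertical axes, each spanning 4 log2 units) of 6 genes in the 6 replicate pairs (horizontal axes), with control as filled circles and ACE as open squares. Control and ACE of a pair lie close together while the pairs differ, as for Cd74 (7.12 to 10.61 over all arrays) and RT1-T24-4 (9.78 to 12.51), and B2m varied less (15.10 to 16.38).

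The 6 member probes that varied most between litters were those of Ifi204, RT1-M1-2, Cd74, RT1-T24-4, RT1-M2 and Ciita, with a standard deviation of the 6 pair means from 0.84 to 1.13. Among the members 5 of 107 (4.67%) lay in the top 5% of all probes by this measure. Of the 6 probes named, RT1-M1-2, RT1-M2 and Ciita were near background, with 6 or 7 of 12 arrays well above it, and RT1-M2 lacked a value in pair 1 and was fitted over the other 5 pairs. RT1-T24-4, a nonclassical class I gene, ranged from 9.78 to 12.38 in control and from 9.98 to 12.51 in ACE, yet its pair differences had a standard deviation of only 0.08. It was lowest in pair 1 and highest in pair 2 in both groups, and was higher in ACE by 0.10 ± 0.035 (SE) in 5 of 6 pairs (limma adjusted p = 0.233).

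Ifi204, a member of the family of DNA-binding p200 proteins, lay between 3.63 and 7.13 in control (median 5.68) and between 3.82 and 7.30 in ACE (median 6.28). Pair 1 was lowest and pair 3 highest. It was higher in ACE by 0.42 ± 0.143 (SE) in 5 of 6 pairs (limma adjusted p = 0.239), with differences from -0.02 in pair 4 to 0.97 in pair 2. Over the 107 probes, 85 had a larger standard deviation between pair means than between pair differences, and the medians of these were 0.31 and 0.19. Over all probes 84.0% had the larger value between pair means, with medians of 0.29 and 0.13, against 79.4% of the members.

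**Figure D4:**
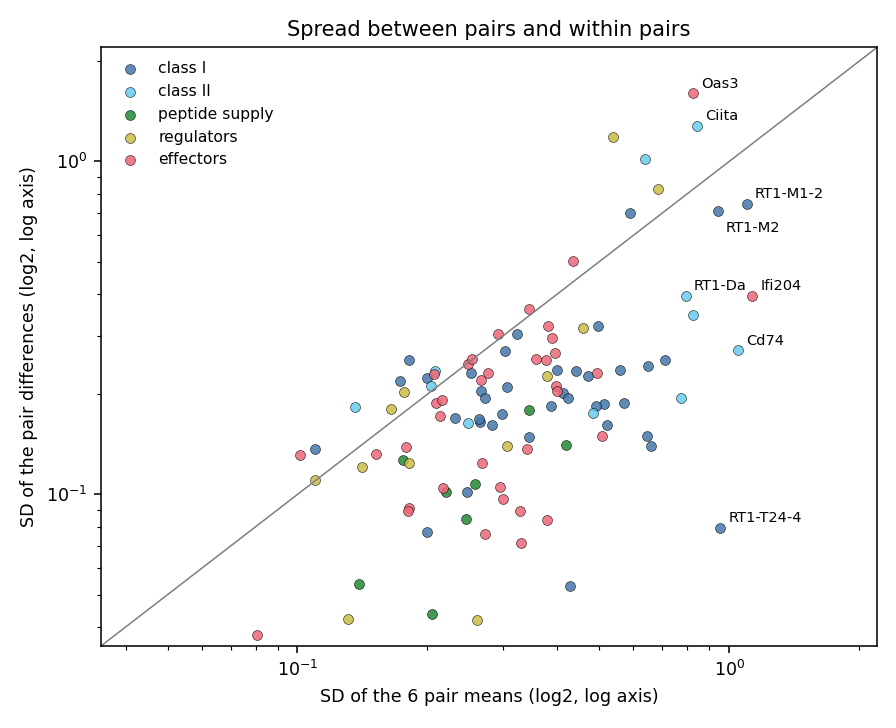
Standard deviation of the 6 pair means (horizontal axis) against the standard deviation of the pair differences (vertical axis), both on the log2 scale and drawn on log axes, for the 107 tested member probes coloured by role. The line marks equal values; 85 probes lie below it, with RT1-T24-4 the farthest, and Oas3 and Ciita lie above it.

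The regulators came next. Irf1, a transcription factor induced by interferon gamma, was higher in ACE in all 6 pairs at its brighter probe (chr10:39227520-39227579, plus strand), which read 11.81, 12.06 and 12.45 in control and 11.88, 12.24 and 12.56 in ACE (lowest, median and highest). The difference was 0.13 ± 0.025 (SE, limma adjusted p = 0.143), while the second Irf1 probe differed by -0.01 ± 0.049. Irf7, which drives type I interferon genes, was higher by 0.24 ± 0.068 in 5 of 6 pairs (limma adjusted p = 0.196), with 12.52 to 13.03 in control and 12.82 to 13.22 in ACE.

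Factors that act just below the interferon receptor gave smaller values. Stat2 differed by 0.10 ± 0.045 and Irf9, its partner in the ISGF3 complex, by 0.07 ± 0.076 (SE), with limma adjusted p of 0.315 and 0.683. Irf3 had a difference of -0.00052 ± 0.025 (SE), higher in ACE in 3 of 6 pairs. Irf5 was higher in all 6 pairs, by 0.13 ± 0.048 (limma adjusted p = 0.258, 0.09 without pair 1), and is named because it completes the set of 11 probes with that property.

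The effectors held 11 of the 21 probes that were higher in ACE at the unadjusted threshold. Ifi47, a GTPase induced by interferon gamma, read 8.48, 8.61 and 8.91 in control and 8.51, 8.83 and 9.09 in ACE (chr10:34204236-34204295, plus strand), and was higher in all 6 pairs by 0.17 ± 0.038 (SE, limma adjusted p = 0.154). Pair 6 was the highest of both groups and pair 4 showed the smallest difference, 0.03. The guanylate-binding proteins Gbp5 and Gbp2 were also higher in all pairs.

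For Gbp5 the first probe (chr2:240447691-240447750, plus strand) read 9.14, 9.27 and 9.76 in control and 9.17, 9.54 and 10.09 in ACE, a difference of 0.19 ± 0.049 (SE, limma adjusted p = 0.176). The second Gbp5 probe differed by 0.04 ± 0.130. Gbp2 (chr2:240541001-240541060, plus strand) read 13.22, 13.67 and 14.11 in control and 13.39, 13.83 and 14.21 in ACE, a difference of 0.13 ± 0.033 (SE, limma adjusted p = 0.178). In pair 1 its difference was 0.0016, so that it was nearly equal in that litter, and the groups overlapped for both genes.

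**Figure D5:**
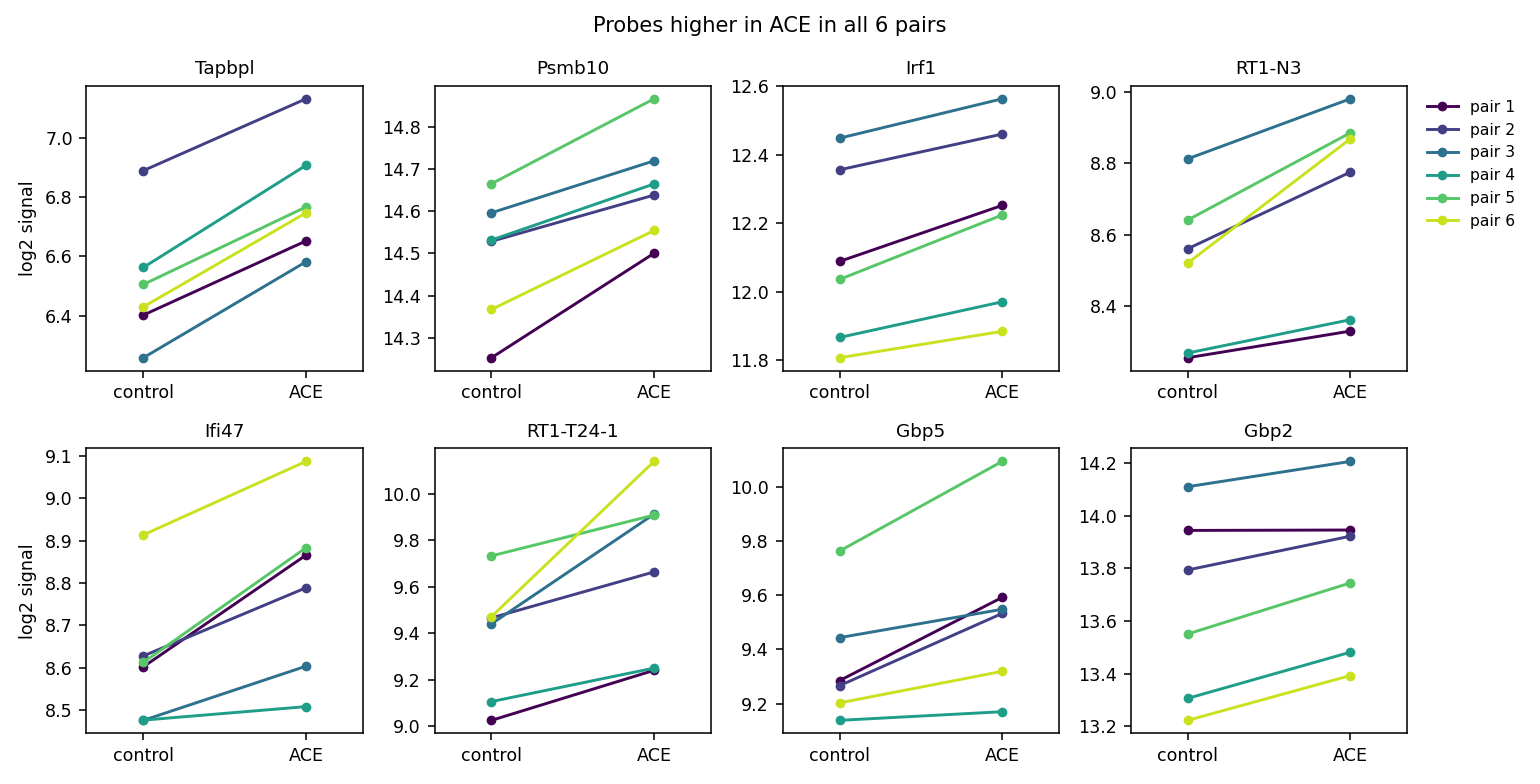
Log2 signal (vertical axes, scaled per panel) of the 8 member probes with the smallest unadjusted p among those higher in ACE in all 6 pairs, in control and ACE cultures (horizontal axes). Each line joins the arrays of a pair. The lines of Tapbpl run nearly parallel, with differences of 0.24 to 0.35, and the Gbp2 line of pair 1 is flat.

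Ifih1 (an RNA sensor, also known as MDA5) and Oas1e were the other effectors higher in all 6 pairs, by 0.26 ± 0.072 and 0.17 ± 0.052 (SE), and both were named after their values were seen. The Oas1e probe shared 47 of 48 overlapping bases with that of Oas1h, which differed by 0.17 ± 0.086 (SE). Mx1, a GTPase that blocks viruses, was higher by 0.26 ± 0.091 in 5 of 6 pairs (limma adjusted p = 0.247), with 13.34 to 14.20 in control and 13.73 to 14.28 in ACE. For Isg15, a ubiquitin-like protein, the difference was 0.17 ± 0.111 and for Mx2 0.13 ± 0.065, neither with an unadjusted p under 0.05. Oas1a, an oligoadenylate synthetase, differed by 0.13 ± 0.094 and Ifitm3, a membrane protein that hinders viral entry, by -0.03 ± 0.036.

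Ifit1, a sensor of viral RNA caps, did not pass the filter. Its control signals were 2.01, 1.94, 2.14, 4.37, 1.78 and 5.56 in pairs 1 to 6, and its ACE signals were 1.86, 2.28, 1.61, 4.75, 1.73 and 6.18. It was high only in pairs 4 and 6, in both groups. The 12 other members that did not pass were 7 class I probes, 2 class II probes (RT1-DOa and RT1-Ha), Irf4, Ifit1lb and Oas1d.

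Differences were also set beside the ISRE core. Effector genes with the motif (16 genes, 14 positive) had a median difference of 0.09 and those without it (10 genes, 10 positive) a median of 0.17. Over all members with a promoter and a tested probe, the medians were 0.05 with the motif (25 genes) and 0.06 without it (49 genes). Psmb10, with a pair of ISRE cores, and Tapbpl, with none, both were higher in every pair.

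Genes of the same pathways that the names above do not cover were counted in the same way. Of 62 listed genes 56 were on the array under these names, with 64 probes that all passed the filter. No probe passed the adjusted threshold (0 of 64, limma), 17 (26.6%) were higher and 3 (4.69%) were lower at an unadjusted p under 0.05, beside 6.9% and 9.73% of all probes, and the median difference was 0.07. Adar, which edits double-stranded RNA, was higher in ACE by 0.27 ± 0.069 and Hfe, a class I-like protein of iron balance, by 0.18 ± 0.057 (SE), each in all 6 pairs, while a second Hfe probe differed by 0.14 ± 0.151 and was higher in 4 of 6 pairs. Socs3, an inhibitor of cytokine signalling, was lower in ACE in all 6 pairs (difference -0.16 ± 0.038, limma adjusted p = 0.166).

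Rfx5 and Psmb7 were the other probes lower at that threshold. Rfx5, a factor that binds class I and class II promoters, had a difference of -0.31 ± 0.117 (SE) and was lower in 5 of 6 pairs, and Psmb7, the constitutive counterpart of Psmb10 in the proteasome, had a difference of -0.07 ± 0.028, also lower in 5 of 6 pairs. Both were named after their values were seen.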

How the data were processed

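Per the labels and the file headers, cRNA of total RNA was labelled with Cy3, hybridised to 1-colour Agilent rat arrays and read with Agilent Feature Extraction (11.0.1.1 for replicate 1, 11.5.1.1 otherwise). The deposited scanner files give a processed intensity per spot, background-subtracted and detrended within the array. The authors also deposited log2 values, quantile normalised and centred per probe, which correlated with the values computed here at 0.997 to 0.999 per array and served as an alternative. Array coordinates are of build rn4, as the file headers state.

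Control spots and outlier spots were left out (447 probe values missing). Processed intensities were put on the log2 scale and quantile normalised over the 12 arrays, and spots of a probe were averaged. Probes above the 20th percentile of their array on at least 7 arrays, with at least 4 complete pairs, were tested (23796 of 30367). The test was limma 3.58.1 in R 4.3.3 (lmFit and eBayes, two-sided), with the replicate number as a fixed block and Benjamini-Hochberg adjustment over all probes at 0.05, and it was tested on simulated data. The number was taken to pair arrays by litter. The methods pair the groups by lot of cells but do not tie the replicate numbers to litters. Deviations of same-numbered arrays correlated at 0.449 to 0.912, against -0.439 to 0.390 otherwise. Same-numbered arrays also shared a slide and a scan batch, so that these correlations cannot settle the pairing by litter. Errors are the limma SE.

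Members and lists were chosen with earlier results of these data known. Named singly were 26 core genes by their brightest probe, up to 8 probes each way with the smallest unadjusted p among those of equal direction in every pair, the 6 with the widest spread between pairs, and up to 3 other pathway probes each way by the same rule. Some genes that these rules name are not reported here. Alternatives were the 75th-percentile shift, normexp (offset 50), the deposited log2 values, no or a stricter filter, each replicate left out, no block, a random block, and scan batch 4 alone, the last chosen after seeing the data for all results but the count of higher probes. The R package data.table (1.17.8) read the files. Python 3.11.15 with matplotlib 3.10.9 made the figures.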

Additional observations from a re-analysis of the deposited data

Results flagged for a closer look

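Dixon's test for a sample far from the rest of its group was applied to 69 groups of values, where chance alone is expected to mark about 5% of groups, and 3 were marked. For RT1-Da, replicate 6 stood apart in control at 8.21 (next value 6.68) and in ACE at 7.99 (next value 6.66), so that both arrays of that litter were high. Ifi47 was high in control replicate 6, at 8.91 (next value 8.63).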

How the results depend on the processing

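The number of arrays and the dim probes limit these results. Without the replicate block, which ignores the pairing by litter, 1 member probe was higher and 0 were lower at an unadjusted p under 0.05, in place of 21 and 1. As a random block the litter gave 1 probe past the adjusted threshold in place of 0. Under the 75th-percentile shift 16 members were higher and 3 lower, the members' median difference was 0.03 in place of 0.06 (all probes -0.03) and 64.5% of members lay above 0 (34.8% of all probes), and of all probes 3.48% were higher and 14.2% lower in place of 6.9% and 9.73%. Within scan batch 4 (3 pairs) 10 of 107 members were higher and 13 lower (5.71% and 8.18% of all probes), and 30 were higher and 27 lower in every pair (18.9% and 23.8% of all probes), with a median of 0.03 and 52.3% of members above 0 (46.8% of all probes). Leaving out a replicate gave 15 to 25 higher and 0 to 2 lower members (0 without replicate 5 or 6, 2 without 1, 3 or 4), 11 to 17 higher in all pairs (17 without replicate 1), 0 to 3 lower in all pairs (3 without replicate 1), and a median of 0.05 to 0.09. The other counts past the adjusted threshold stayed at 0 under these alternatives. Of the 22 members called, 16 were called again under the shift, 19 with normexp, 22 with the deposited table and 7 within scan batch 4. Several differences without an unadjusted p under 0.05 changed sign. Under the shift B2m was at -0.0269, RT1-A2 at 0.00233, Tap1 at -0.00955 and RT1-Ba at -0.0900, and with normexp B2m at -0.0171 and RT1-Ba at -0.0165. The deposited table gave RT1-A2 0.00339, Irf3 0.00522 and RT1-M2 -0.157 in place of 0.40. Within scan batch 4 B2m was at -0.00935, Psmb9 at -0.0404, Psmb8 at -0.0613, Tap2 at -0.0768, Tap1 at -0.0522 and RT1-Da at -0.0465. With a replicate left out the ranges were -0.00860 to 0.0221 for B2m, -0.0959 to 0.0543 for RT1-A2, -0.0101 to 0.0128 for Irf3, -0.0197 to 0.0540 for Psmb8, -0.00903 to 0.0669 for Tap2, -0.00146 to 0.114 for Irf9, -0.0303 to 0.0558 for Tap1, -0.0168 to 0.187 for RT1-Da, -0.0325 to 0.0832 for RT1-Ba, -0.569 to 0.172 for Ciita and -0.104 to 0.306 for RT1-M1-2, and, without a change of sign, 0.0509 to 0.179 for Oas1a, 0.0926 to 0.251 for Isg15 and 0.0775 to 0.176 for Mx2. The cause of these changes was not tested.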

Other observations

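RT1-Ha, a class II probe that did not pass the filter, had log2 signals between 1.34 and 2.15 on 10 of the 12 arrays but 4.15 in ACE replicate 3 and 8.49 in ACE replicate 5, where its control read 1.42. ACE replicate 5 was also the array with the highest signal of the first RT1-Bb probe, 8.19. In pair 5, 7 of the 11 tested class II probes were higher in ACE than in control, with a median difference of 0.19 (0.03 and 6 of 11 under the 75th-percentile shift), and Cd74 read 8.97 against 8.60 in control and RT1-Da 6.25 against 5.92.

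Skeletal muscle markers, a list of 8 genes, had a mean log2 signal between 7.32 and 11.72 in control and between 7.37 and 10.46 in ACE, with high values in control replicates 1, 2 and 6 and ACE replicate 1. The difference was negative for all 8 genes, with a median of -0.86, and the mean of the list was lower in ACE in 4 of 6 pairs, most in pair 2 (11.72 in control and 7.72 in ACE). Counted by the brightest probe of each gene, 1 of the 8 genes was lower at an unadjusted limma p under 0.05 (12.5%, beside 9.73% of all probes), and 0 passed the adjusted threshold. The gene lower was Myog, at -0.75 and at -0.45 without pair 2. Outside that count, a Myh3 probe was also lower at that threshold, at -3.08 and at -2.02 without pair 2. Its difference was the lowest of all probes tested. Both were named after their values were seen. The part of muscle cells in the members' values was not tested. The astrocyte list (14.81 to 15.81) and the oligodendrocyte list (14.58 to 15.40) had narrower ranges.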
